A study of Mus musculus with 6 samples.

Results

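The genes described here drive the G2 phase and mitosis. They were taken by symbol from a list of 40, and 38 of them had a row with a single Ensembl identifier and were used; a symbol on more than 1 row was represented by the row with the highest mean level. They are 38 of 9667 genes that were compared in the same way. Ba/F3, a mouse pro-B cell line that lives on interleukin-3 (IL-3), carried either human calreticulin (hCALR) or its type 1 mutant (hCALR-del52) in the retroviral vector pMSCV-IRES-GFP. Both groups were kept in IL-3 at 1 ng/ml, and each has 3 replicates, so that 6 samples were sequenced. The authors' deposited table gives 1 FPKM value (fragments per kilobase of transcript, scaled to all mapped fragments) per group, so no value below has an SD, the depth is unknown, and a difference can be judged only by the authors' p and q. Construct and transduced line cannot be told apart, and the labels do not say whether the replicates are separate cultures or transductions.

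A cell enters mitosis when the kinase Cdk1, bound to cyclin B, is switched on by the Cdc25 phosphatases. Polo and Aurora kinases then build the spindle, the spindle checkpoint holds the anaphase-promoting complex until every kinetochore is attached, and the complex with its activator Cdc20 starts chromosome separation. Most of these genes are transcribed late in the cell cycle, through a promoter element named the cell cycle genes homology region (CHR), bound by the MuvB complex, and through CCAAT boxes, bound by NF-Y. Their summed RNA is therefore often read as a sign of how many cells of a culture are in G2 and M, but in bulk RNA more cells in these phases and more RNA per cell cannot be told apart.

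All 38 genes had a higher FPKM in hCALR-del52 than in hCALR cells, and none of them passed the authors' test. Their FPKM summed to 2505 in hCALR and 3074 in hCALR-del52 cells, and the median fold was 1.25, from 1.02 for Smc4 to 1.65 for Cdc20. At the authors' q under 0.05, 0 of 38 were called higher or lower, against 0.962% called higher and 0.859% called lower among the 9667 genes compared. At an unadjusted p under 0.05 in the authors' Cuffdiff test, 1 of 38 passed, Cenpe with the authors' p = 0.0411, against 4.46% of the genes compared. On the log2 ratio, which is log2((FPKM hCALR-del52 + 1)/(FPKM hCALR + 1)), the 38 genes had a median of 0.31, and the genes compared a median of -0.01. A ratio above 0 was held by 48% of the genes compared, and the list was chosen with earlier results of these data known, so its even direction is a description and not a test. In this table the smallest absolute log2 fold change of any called row was 0.81, a fold of 1.75, and the fold of each of the 38 genes lay under it.

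The 8 promoters below are shown because all members had ratios above 0 and the starts of most of them hold the same elements; they include the highest ratio, Cdc20, and a pair of low ones, Bub1 and Mad2l1. Each runs from 100 bases before to 50 bases after the gene start of RefSeq (build GRCm38.p6), 5′ to 3′ on the gene's strand. Capitals mark matches to TTTGAA, the CHR, on either strand, to TTCGAA, a variant of it, and to CCAAT on either strand (read as ATTGG on the opposite strand).
Cdc20, chr4:118437294-118437443, minus strand: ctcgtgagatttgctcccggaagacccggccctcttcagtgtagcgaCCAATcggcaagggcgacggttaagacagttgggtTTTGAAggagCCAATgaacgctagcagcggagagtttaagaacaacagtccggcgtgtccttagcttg
Ccnb2, chr9:70421505-70421654, minus strand: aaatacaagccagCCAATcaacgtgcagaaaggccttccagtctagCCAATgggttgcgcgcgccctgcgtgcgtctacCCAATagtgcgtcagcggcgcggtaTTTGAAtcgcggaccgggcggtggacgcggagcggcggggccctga
Cenpf, chr1:189688037-189688186, minus strand: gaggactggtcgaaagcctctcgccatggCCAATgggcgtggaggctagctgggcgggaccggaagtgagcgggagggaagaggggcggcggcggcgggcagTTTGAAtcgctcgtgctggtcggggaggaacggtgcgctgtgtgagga
Racgap1, chr15:99651607-99651756, minus strand: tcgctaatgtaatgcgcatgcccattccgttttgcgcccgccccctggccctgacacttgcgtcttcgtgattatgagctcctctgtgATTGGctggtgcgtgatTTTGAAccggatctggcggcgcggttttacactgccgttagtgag
Plk1, chr7:122159335-122159484, plus strand: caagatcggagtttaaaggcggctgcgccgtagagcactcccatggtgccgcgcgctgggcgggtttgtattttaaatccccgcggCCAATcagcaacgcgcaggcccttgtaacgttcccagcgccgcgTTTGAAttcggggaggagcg
Cdk1, chr10:69352863-69353012, minus strand: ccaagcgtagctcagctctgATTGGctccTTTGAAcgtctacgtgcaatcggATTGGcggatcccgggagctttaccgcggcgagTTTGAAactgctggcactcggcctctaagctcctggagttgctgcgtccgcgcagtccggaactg
Bub1, chr2:127831810-127831959, minus strand: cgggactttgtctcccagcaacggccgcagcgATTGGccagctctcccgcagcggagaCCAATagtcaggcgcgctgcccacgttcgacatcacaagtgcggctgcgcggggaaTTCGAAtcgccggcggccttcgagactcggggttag
Mad2l1, chr6:66535121-66535270, plus strand: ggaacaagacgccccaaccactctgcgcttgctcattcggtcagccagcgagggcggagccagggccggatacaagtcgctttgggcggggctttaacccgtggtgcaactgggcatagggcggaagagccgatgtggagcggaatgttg

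In Ccnb2 the pattern is plainest: 3 CCAAT boxes stand 33 bases apart, and a TTTGAA follows within 10 bases after the start. In Cdc20 a TTTGAA lies between a pair of CCAAT boxes, all before the start. Racgap1, Cenpf and Plk1 have a CCAAT box before the start and a TTTGAA after it. Cdk1, whose ratio was under the members' median, has 2 of each in this stretch. Bub1, among the lowest ratios, has CCAAT boxes and the variant TTCGAA, and the stretch of Mad2l1 holds none of these letters. The promoters shown do not stand for all members. Anln and Smc2, also with low ratios, have a TTTGAA after the start, and Cenpe and Ccnb1, with higher ratios, have none. The RefSeq start used for Mad2l1 lies 169 bases before the gene start in GENCODE. The stretch shown for Mad2l1 ends before that start, which is also where the locus of the table begins, at 66535390. RefSeq and GENCODE also differed by 3867 bases for Kif2c, 328 for Kif4, 148 or 272 for the windows of Bub3, and 109 for Cenpa. In the other members with a window they differed by at most 84 bases, in Ccnb1.

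Among the 31 members with an entry, the window of 250 bases before to 50 after the start held TTTGAA in 23 genes, or 74.2%, against 14.3% of 7295 genes compared that have an entry and 17.9% of all 32851 windows. CCAAT was held by 26 of the 31, or 83.9%, against 43.7% of the genes compared and 37.4% of all windows. Both were held by 21, or 67.7%, against 6.09% of the genes compared and 6.95% of all windows. The variant TTCGAA was held by 4 of the 31, against 2.59% of the genes compared and 1.56% of all windows. The TTTGAA matches stood close to the start: 22 genes had one between -50 and 50. Incenp, Kif20a, Tpx2, Aurkb, Ccna2, Smc4 and Cdc25c had no entry. A match is a run of letters and not a measured binding site.

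Members with and without TTTGAA had close medians. The median log2 ratio was 0.31 for the 23 genes with TTTGAA and 0.34 for the 8 without, Cenpe, Ccnb1, Nek2, Cdc25b, Birc5, Nusap1, Mad2l1 and Bub1. Of these, Cdc25b and Bub1 hold the variant TTCGAA. With either form counted, the medians were 0.31 for 25 genes with it and 0.34 for 6 without. Outside the members and the other cell cycle lists described below, 51.6% of 972 genes with TTTGAA in the same window were above 0, against 46.6% of 6140 genes without it. The median log2 ratios of these genes were close, 0.01 with it and -0.01 without it. With TTTGAA between -100 and 50, 55.2% of 359 genes were above 0, against 46.9% of 6753 without it. For CCAAT the order in genes outside these lists was the other way, with 46.7% of 3072 genes above 0 against 47.7% of 4040 without it. Among the members, the median log2 ratio was 0.34 for the 26 with CCAAT and 0.28 for the 5 without. No test was made of these medians and shares, and genes are not independent replicates.

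**Figure D1:**
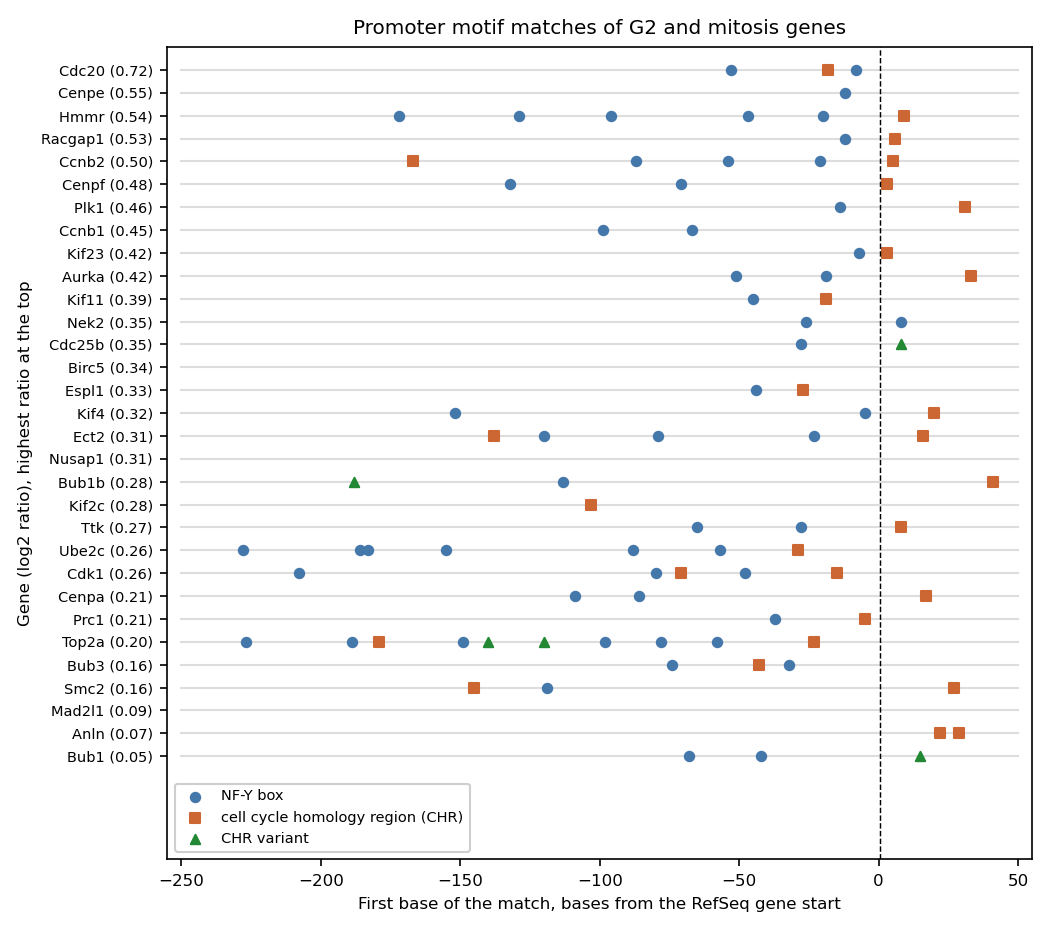
Positions of promoter element matches in 31 member genes, one row per gene with its log2 ratio, ordered from the highest ratio (Cdc20, 0.72) to the lowest (Bub1, 0.05). The x axis is the first base of the match in bases from the RefSeq gene start, squares are CHR matches, triangles the CHR variant and circles NF-Y boxes; 22 genes have a CHR match between -50 and 50, at high and low ratios alike.

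The 6 entry genes had a median log2 ratio of 0.38, and 4 of them lay above the median of all members, with Ccna2 and Cdk1 below it. Ccnb2, which encodes cyclin B2 (chromosome 9, 70407687 to 70421579, mm10), was at 80.2 FPKM with hCALR and 114 FPKM with hCALR-del52, a fold of 1.42 with the authors' p = 0.0547. Ccnb1, cyclin B1 (chromosome 13, 100778650 to 100786570), was at 36.8 and 50.8 FPKM with the authors' p = 0.0928. Both B cyclins thus differed by about the same fold, 1.42 and 1.38, at different levels. Their kinase Cdk1 was the most abundant entry gene, at 181 and 216 FPKM, with a fold of 1.20, and Ccna2, the cyclin A2 of S and G2 phase, was at 93.1 and 114 FPKM. The phosphatase gene Cdc25b was at 31.4 and 40.3 FPKM. Cdc25c, its relative, had the lowest level of all members, at 8.36 and 11.5 FPKM, while another row with its identifier and locus stood at 1.11 and 1.23 FPKM. The kinase was thus measured far above its activators, and its fold was the smallest of the entry genes.

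Among the mitotic kinases the folds ran from near 1 to 1.38, with a median log2 ratio of 0.31 for 6 genes. Plk1, the polo kinase of centrosome and spindle assembly (chromosome 7, 122159437 to 122169875), was at 40.1 and 55.5 FPKM with the authors' p = 0.0709. Aurka, the Aurora kinase of the spindle poles, was at 28.9 and 39.1 FPKM, and Nek2, a kinase of centrosome separation, at 22.4 and 28.9 FPKM. These kinases of the centrosome and poles had the highest folds of the group, 1.38, 1.35 and 1.29. Ttk, the checkpoint kinase also named Mps1, was at 17.6 and 21.4 FPKM, and Aurkb, the kinase of the chromosomal passenger complex, at 91.9 and 108 FPKM. Bub1, a checkpoint kinase at kinetochores, was nearly level at 39.3 and 40.6 FPKM with the authors' p = 0.896. The partners of Aurkb were close to it in level and fold: Incenp, the scaffold of the complex, was at 82.5 and 99.9 FPKM, and Birc5, which encodes survivin, at 85.9 and 109 FPKM.

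The spindle checkpoint genes had lower ratios, with a median of 0.16 for 3 genes. Bub1b, which encodes BubR1, was at 46.9 and 57.3 FPKM, and Mad2l1, which encodes the Cdc20 inhibitor Mad2, at 77.5 and 82.8 FPKM with the authors' p = 0.834. Bub3, the partner of Bub1 and BubR1, was at 167 and 186 FPKM with the authors' p = 0.887. The table gives Bub3 a locus of 2962 kb that is shared with 14 other rows, while the gene spans 11.7 kb in the GENCODE annotation, so its locus is that of a merged block.

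Cdc20, the activator of the anaphase-promoting complex that the checkpoint holds back, had the highest ratio of all 38 genes. It was at 98.2 FPKM with hCALR and 162 FPKM with hCALR-del52, a fold of 1.65, and the authors' test gave p = 0.0767 and q = 0.519. Its ratio lay above that of 98.2% of the genes compared. The locus of its row (chromosome 4, 118428093 to 118437352) is shared with Elovl1, a fatty acid elongase gene whose exons overlap it on the other strand and which was at 90.6 and 85.1 FPKM. Of 9 other rows within 350 kb, a distance chosen after values were seen, 2 were called higher, Ptprf among them, at 0.733 and 3.43 FPKM. Of all rows, 1.84% were called. Espl1 and Ube2c each had 1 called row within that distance, of 21 and 20 rows, and 35 of the 38 members had none. The share of all genes with a called row that near was not computed. Whether the value of Cdc20 is tied to this stretch of chromosome 4 was not tested. Ube2c, the ubiquitin-conjugating enzyme of the same complex, started from nearly the same level, 99.5 FPKM, and was at 120 FPKM. Espl1, which encodes separase, the protease that cuts cohesin, was at 14.5 and 18.5 FPKM.

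At the kinetochore both large proteins differed more than the centromeric histone. Cenpe, a kinesin that carries chromosomes to the spindle equator (chromosome 3, 135212563 to 135273540), was at 14.9 and 22.2 FPKM, a fold of 1.49 with the smallest p of all members, 0.0411, and q = 0.354. Cenpf was at 25.1 and 35.5 FPKM, a fold of 1.41. A like fold did not bring a like p: the authors' test gave Cenpf p = 0.405. Cenpa, the histone H3 variant of centromeres, was at 126 and 146 FPKM, a fold of 1.16.

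The 6 spindle genes had log2 ratios from 0.28 to 0.54, with a median of 0.31. Hmmr, a protein of the spindle poles (chromosome 11, 40701334 to 40733435), had the highest, at 33.8 and 49.8 FPKM with the authors' p = 0.0698. Kif11, the kinesin that pushes the poles apart, was at 56.4 and 74.0 FPKM, and Kif4, a kinesin of chromosome arms, at 18.5 and 23.3 FPKM. Tpx2, an activator of Aurora A, was at 68.0 and 84.5 FPKM. The microtubule-binding Nusap1, at 88.6 and 110.1 FPKM, and the depolymerizing kinesin Kif2c, at 32.6 and 39.8 FPKM, differed by folds of 1.24 and 1.22, under those of Hmmr, 1.47, and Kif11, 1.31.

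Of the 6 cytokinesis genes, 5 had folds between 1.16 and 1.46. Racgap1 and Kif23, which together form centralspindlin, were at 63.6 and 92.6 FPKM and at 30.3 and 41.0 FPKM, with the authors' p = 0.140 and 0.103. Ect2, the activator of RhoA that centralspindlin recruits, was at 30.6 and 38.3 FPKM, and the midzone kinesin Kif20a was at 25.5 and 33.1 FPKM. Prc1, which crosslinks the midzone, was at 66.5 and 77.1 FPKM. Anln, the ring protein anillin, was the exception, at 27.3 and 28.6 FPKM.

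The genes of chromosome structure had a median of 0.16 for 3 genes, as had the checkpoint genes. Top2a, the topoisomerase that untangles sister chromatids, was the most abundant member, at 266 and 305 FPKM. The condensin cores Smc2, at 52.0 and 58.1 FPKM, and Smc4, at 137 and 140.1 FPKM, differed by folds of 1.12 and 1.02. Smc4, with the authors' p = 0.945, had the lowest ratio of all. Condensin also works on chromosomes outside mitosis, and whether that bears on the ratio of Smc4 was not tested. Mki67, the proliferation marker Ki-67, and Foxm1, the transcription factor of late cell cycle genes, were not used because their rows carry 2 identifiers; their rows stood at 111 and 147 FPKM and at 31.8 and 34.4 FPKM, both uncalled.

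**Figure D2:**
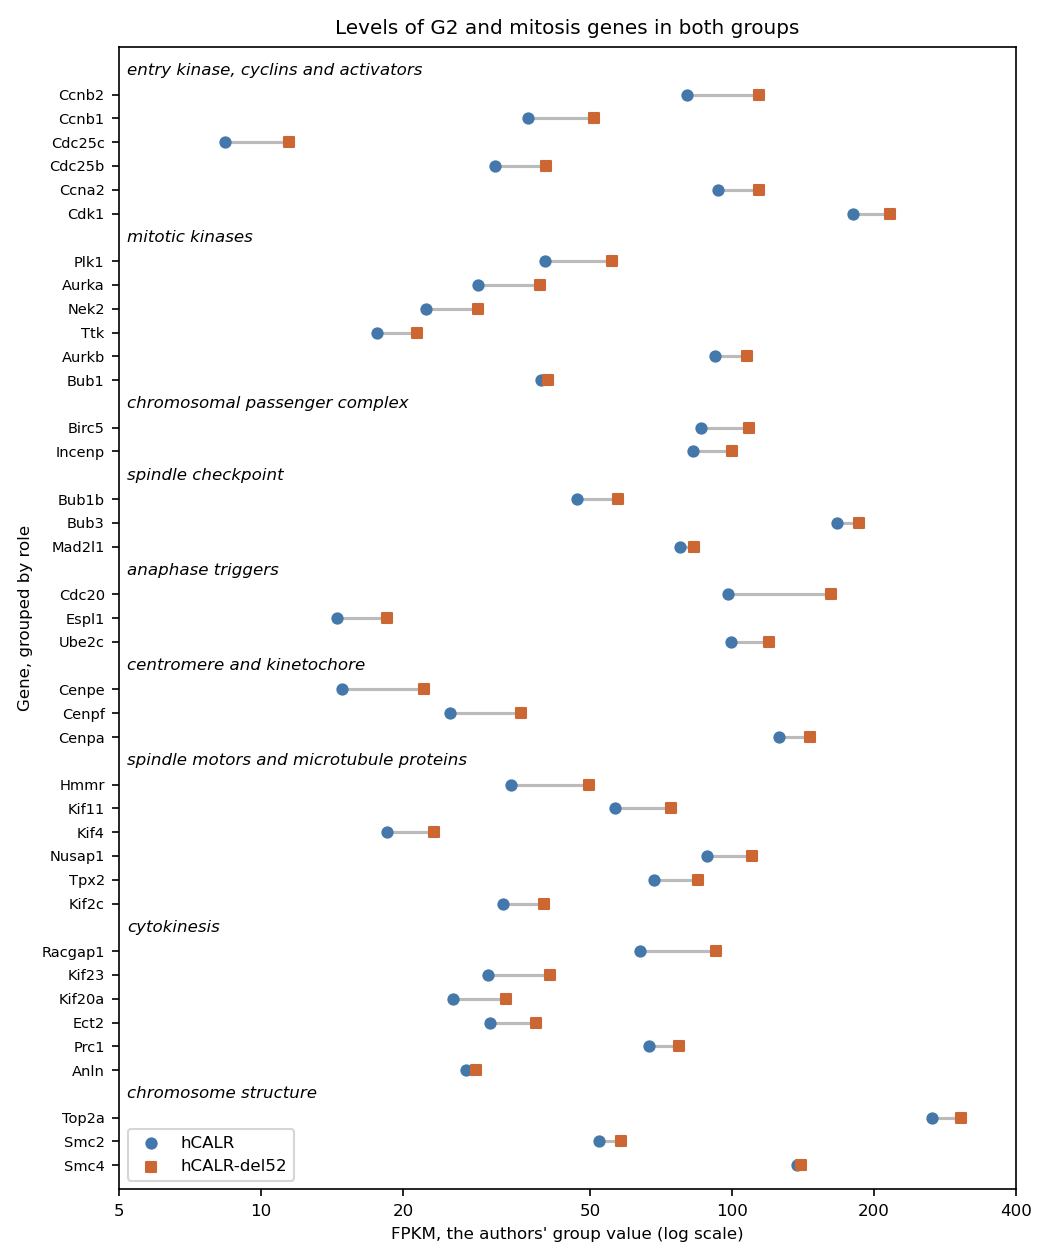
FPKM of the 38 members on a log scale, grouped by role, with circles for hCALR and squares for hCALR-del52 cells; each symbol is the authors' single value per group. Every square lies to the right of its circle, by most in Cdc20 (98.2 to 162 FPKM) and by least in Smc4 (137 to 140.1 FPKM).

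Ratios fell into a broad middle with short ends. Of the 38 genes, 20 had a log2 ratio of 0.2 to 0.4, 11 of at least 0.4 and 7 under 0.2. A ratio of at least 0.2 was held by 31 of 38, against 14.5% of the genes compared, and one of at least 0.5 by 5, against 3.3%. The 5 were Cdc20, Cenpe, Hmmr, Racgap1 and Ccnb2. The 4 under 0.1 were Mad2l1, Anln, Bub1 and Smc4, whose authors' p-values were at least 0.811. Across the 38 genes the ratio went with level only weakly (Spearman's rho -0.36 with mean FPKM), and all points share the same libraries.

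**Figure D3:**
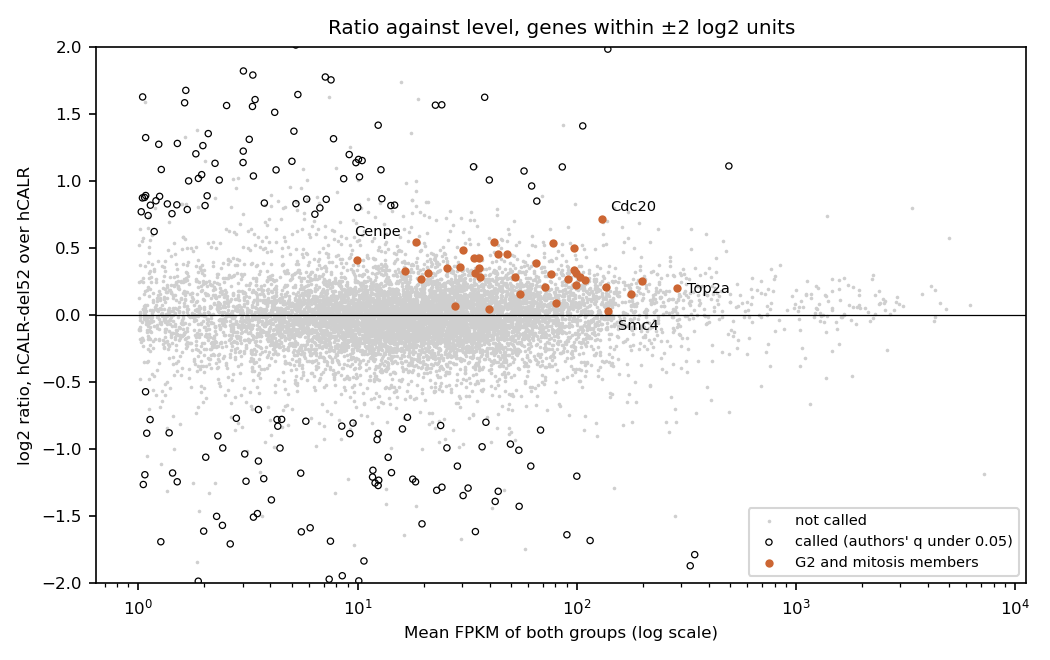
Log2 ratio of hCALR-del52 over hCALR against mean FPKM (log scale) for the genes compared, with called genes as open circles and the 38 members as filled points; 23 genes lie beyond the axis limits of 2. The members lie between 0.03 and 0.72 and none of them is a called gene.

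The members lie on 15 chromosomes, with 7 of them on chromosome 2, and none on chromosome 17, whose 513 compared genes had a median log2 ratio of -0.17. On every other chromosome with at least 50 compared genes the median was between -0.04 and 0.02. All 38 are protein coding in GENCODE. The longest coding transcripts of the members had a median of 3406 bases and 47.3% GC, against 3063 bases and 49.9% GC for 9498 genes compared. In 10 members the locus is given to another row too, among them Cdc20, Aurka, Ccna2, Kif20a and Nusap1, and in 11 members exons overlap exons of the other strand. The TruSeq RNA v2 kit named in the labels does not mark strand, so reads of such overlaps could go to either gene.

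The other genes of the pathway were taken from 8 lists of 201 genes that are no members, of which 190 were measured. None was called higher or lower, 3 had an unadjusted p under 0.05 in the authors' test, and 158 were above 0, with a median of 0.18. Of the genes compared, 0.962% were called higher and 0.859% lower, 4.46% had such a p, and 48% were above 0. The list nearest to the members was that of other spindle and midbody genes: 27 of 28 were measured and all 27 were above 0, with a median of 0.30. Stmn1, which encodes the tubulin-binding stathmin, was at 133 and 163 FPKM, and Tacc3, a spindle protein, at 63.4 and 80.1 FPKM. Of 16 genes of the anaphase-promoting complex and its regulators 12 were above 0, with a median of 0.19; Ube2s, its chain-extending enzyme, was at 247 and 305 FPKM and the subunit gene Anapc5 at 123 and 154 FPKM. Cdc20 and Ube2c thus had partners with ratios above 0, but not all: 4 of the 16 were below.

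Other mitotic lists stood lower than the members. Of 36 kinetochore partners 30 were above 0, with a median of 0.15, and the most abundant, Hjurp, the chaperone of Cenpa, and Zwint, were level at 165 and 163 FPKM and at 89.7 and 91.2 FPKM. Of 18 condensin and cohesin genes 16 were above 0, with a median of 0.15; the condensin II gene Ncaph2 was at 140 and 152 FPKM, and the cohesin gene Smc1a at 138 and 136 FPKM. Of 24 entry and exit regulators 22 were above 0, with a median of 0.13, and the Cdk-binding Cks2 and Cks1b were level at 226 and 232 FPKM and at 141 and 141 FPKM. The members and the spindle list were thus above the rest of the mitotic machinery by their medians, with no test of the difference.

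S phase genes had a median like those of the lists just named, and the G1 and regulator lists had lower ones. Of 35 S phase genes 31 were above 0, with a median of 0.15; Pcna, the sliding clamp of replication, was at 293 and 331 FPKM and the helicase gene Mcm7 at 161 and 186 FPKM. Of 18 G1 cyclins, kinases and inhibitors 11 were above 0, with a median of 0.09; Cdk4 was at 551 and 586 FPKM and Ccnd3, cyclin D3, at 91.1 and 109 FPKM. Of 16 regulators that bind the promoters of these genes, among them the DREAM and Myb-MuvB subunits, 9 were above 0, with a median of 0.05. Myb, which is not the subunit of Myb-MuvB, was at 227 and 145 FPKM with the authors' p = 0.101, and Tfdp1, a partner of E2F, at 137 and 163 FPKM. Mybl2, which encodes that subunit, B-Myb, was at 51.9 FPKM with hCALR and 65.4 FPKM with hCALR-del52, with the authors' p = 0.349.

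**Figure D4:**
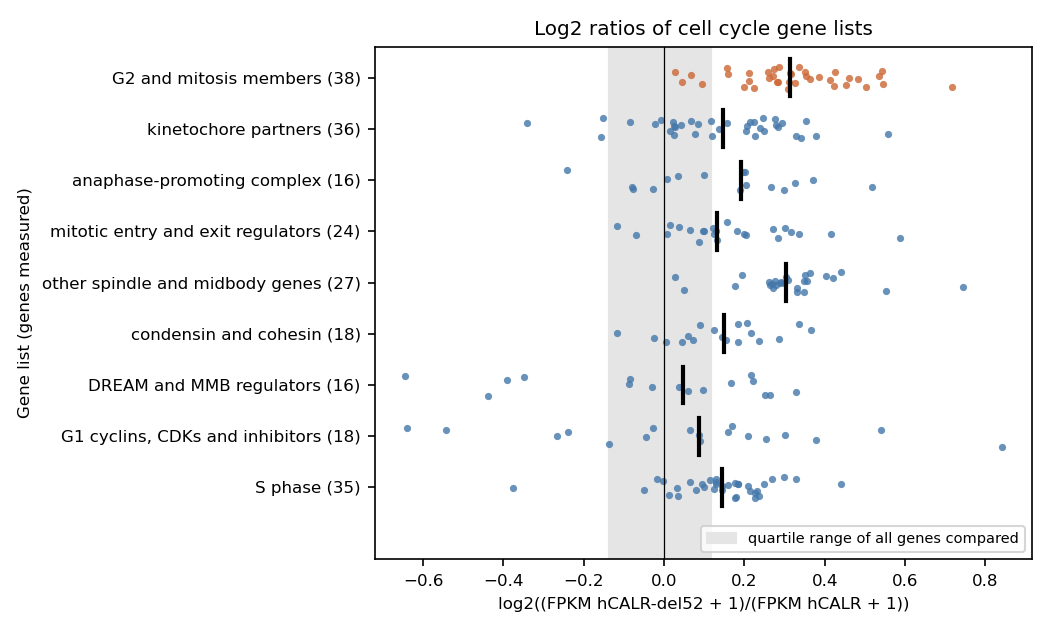
Log2 ratios of the 38 members and of 8 other cell cycle lists, one point per measured gene, with a black bar at each list's median and a grey band from the lower to the upper quartile of all genes compared (-0.14 to 0.12). Members (median 0.31) and other spindle and midbody genes (0.30) lie wholly above 0, while the other lists, with medians from 0.05 to 0.19, reach below it.

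Markers of blood cells moved between the same groups. Of 17 measured erythroid markers, from a list of 22, 9 were called higher and none lower, and their FPKM summed to 831 in hCALR and 1645 in hCALR-del52 cells. Without the globin genes Hbb-b1 and Hba-a1 the sums were 771 and 1001 FPKM, and 3 of the 17, Rhag, Epb4.2 and Epor, were below 0 and uncalled. Of 8 measured granulocyte and monocyte markers, from a list of 16, 5 were called lower and 1 higher, with sums of 185 and 116 FPKM. Of 14 markers of pro-B cells and of Ba/F3, 5 were compared (Csf2rb, Csf2rb2, Ptprc, Il3ra and Cd79b), all uncalled and below 0, with sums of 895 and 552 FPKM; Pax5, Vpreb1 and Rag1, genes of the lineage of the labelled cell type, are not among the rows compared. None of the compared markers is listed at 0. Their part in the ratios of the mitotic genes was not tested.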

How the data were processed

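RNA of 3 hCALR and 3 hCALR-del52 replicates was grouped by sample title. Per the submitters' processing notes and the file headers, reads were processed with Bowtie2 2.1.0, TopHat2 2.0.9 and Cuffdiff 2.1.1 on mm10 with Ensembl genes. The authors' deposited table holds FPKM as 1 value per group over 12615 rows, after low and highly variable genes were removed per the file headers. The authors also deposited the log2 fold change with its p-value and its q-value (Benjamini-Hochberg), and the test statistic and rank, both a score deposited by the authors, were not used. Depth and replicate spread are not given, so no test over replicates was made, and p-values measure only the spread that the authors' test saw.

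Starts in the table count from 0, and 1 was added. Genes compared have 1 FPKM or more in a group, a symbol and 1 identifier; the row with the highest mean stands for a repeated symbol. Called means the authors' q under 0.05. Of all 12615 rows 232 were called, or 1.84%, and 4.9% had p under 0.05. The log2 ratio adds 1 FPKM to both values and so understates changes of low genes. Promoter windows come from RefSeq, and 31 members matched by symbol; where a gene has several, positions are those of the window with the lowest start. Lengths and overlaps come from GENCODE M21. Python 3.11.15 and pandas 2.3.3 were used, and the ratio, the adjustment and the motif search were tested on simulated data.

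Members and lists were chosen with earlier results of these data known. All members are named; of each other cell cycle list the 2 genes with the highest mean FPKM and any called gene are named, and the rest, with Elovl1, Ptprf and the distance of 350 kb, were chosen after their values were seen. Some items are not reported here. Alternatives were other thresholds, adjustments, pseudocounts, filters and centring.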

Additional observations from a re-analysis of the deposited data

How the results depend on the processing

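No paired analysis was possible because each deposited value stands for a whole group, which also kept any replicate from being left out and any replicate block from being fitted. The count of called members was 0 with the authors' q under 0.05 or 0.01, with the p-values adjusted again over all rows or over rows with at least 1 FPKM in both groups, and 1 at an unadjusted p under 0.05. The smallest p adjusted over all rows was 0.908, for Cenpe, whose authors' q was 0.354. The authors' q thus does not come from an adjustment over these rows alone, and for this gene it was the more lenient value. The median log2 ratio of members moved by less than 0.1, and all members stayed above 0, with a pseudocount of 0.1, with the 37 members of at least 10 FPKM, and after centring on the median of all genes; the deposited log2 fold change gave a like median. No member's ratio changed sign, and none moved by more than 0.04. The list medians of the other cell cycle genes also moved by less than 0.1 under these 3 settings. Chosen after seeing the data, adding Mki67 and Foxm1 (40 genes) or leaving out the 10 members that share a locus (28 genes) kept the count of calls at 0 and every ratio above 0.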

Other observations

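Some cell cycle genes outside the list are named here after their values were seen; none was called at the authors' q under 0.05. Of the 3 with an unadjusted p under 0.05, the smallest p belonged to a gene below 0: Cdkn2b, which encodes the Cdk inhibitor p15, was at 1.78 FPKM with hCALR and 0.784 FPKM with hCALR-del52, with the authors' p = 0.00925 and q = 0.126. Psrc1, a spindle protein gene, was at 14.8 FPKM with hCALR and 25.5 FPKM with hCALR-del52, with the authors' p = 0.0184, and Gtse1, a microtubule-binding gene of G2 and S phase, at 15.0 and 23.0 FPKM with the authors' p = 0.0178. Their folds, 1.72 and 1.54, lay above those of all members other than Cdc20, and that of Psrc1 also above Cdc20. Pttg1, which encodes the separase inhibitor securin, was at 52.9 and 76.2 FPKM with the authors' p = 0.0735, while separase itself, Espl1, had the authors' p = 0.190. Cdkn1a, which encodes the Cdk inhibitor p21, was at 75.6 and 110.4 FPKM with the authors' p = 0.0540. Of the E2F genes measured in these lists, E2f2 had the highest ratio, at 14.7 and 27.1 FPKM, and E2f3 the lowest, at 16.7 and 11.2 FPKM, neither called. Between them, E2f4, E2f7 and E2f8 had log2 ratios of -0.09, 0.16 and -0.03, and E2f5, at 3.86 and 2.70 FPKM, one of -0.39.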
